A study of Bos taurus with 20 samples.

Results

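The genes described here are 125 of the 27607 gene IDs counted in bovine endometrium, the mucosal lining of the uterus, and were chosen for being low at estrus and on day 5 of the cycle and high on days 10 and 14. The choice used measured levels. Counts were scaled to CPM (counts per 1000000 of a library's total), and the level of a day was taken as the median CPM of its 4 libraries plus 0.5. A member had a day 0 level under 1000, day 10 and day 14 levels of at least 5, and day 10 and day 14 levels each at least 2 times the day 0 level and at least 2 times the day 5 level. Day 18 was not read by this choice. The libraries came from biopsies of sexually mature, non-lactating virgin Holstein heifers, at least 7 months old and of at least 340 kg, with 4 animals on each of days 0 (estrus), 5, 10, 14 and 18. Before biopsy, heifers of all 5 groups had the same synchronization (five-day Co-synch): Fertagyl, an analog of gonadotropin-releasing hormone, then progesterone from an Eazi-Breed device in the vagina, then Estrumate (cloprostenol), a prostaglandin analog, given again when the device was taken out. Each library is 1 animal, drawn at random for its day, and there was no group without synchronization.

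After ovulation the ruptured follicle becomes the corpus luteum, which secretes progesterone through the middle of the cycle. Under continued progesterone the epithelium of the endometrium loses its progesterone receptor and the glands turn to secretion, which feeds a conceptus before it attaches. Without a conceptus, prostaglandin from the uterus ends the corpus luteum late in the cycle, progesterone falls, and the animal returns to estrus. Days 10 and 14 are in the phase of the active corpus luteum, and day 18 is near its end. No hormone level of any animal was used here.

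The IDs are Ensembl gene IDs and the tables do not pair them with names. A reference list of 37063 bovine genes was searched for them and held none of the 125 members and 0 of all 27607 IDs, so functions, gene families, sequences, positions and the markers of endometrial cell types are not analysed here. Only 4 members are printed by ID. In a biopsy of mixed cells, more cells of a type and more RNA per cell cannot be told apart.

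The libraries had 21234000 to 26644679 counts. Among the members, 5 libraries stood apart from others of their day. Day 10 replicate 3 and day 18 replicate 3 were alike, with a correlation of 0.971 over the log2 levels of the 125 members, while day 10 replicate 3 correlated at 0.284 with day 10 replicate 2. Day 10 replicate 1 correlated at 0.593 to 0.628 with the other day 10 libraries, where replicates 2 and 4 correlated at 0.902, and it held the highest share of members' counts of all libraries. Day 18 replicate 1 had most members near their day 0 level, and day 5 replicate 1 had many at their late level. These correlations are over genes of the same libraries, which are not replicates. The part that stage, biopsy content or handling had in these libraries was not tested. Counts of calls and medians of the members were also taken without each library, and without day 10 replicates 1 and 3 and day 18 replicate 3 together. That joint alternative keeps day 5 replicate 1 and day 18 replicate 1.

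Most members were moderate in level and in change. The day 0 level had a median of 4.76 over the members and a range of 0.5 to 466, and the day 5 level a median of 8.82 and a range of 0.5 to 681. The day 10 level had a median of 33.5 (5.16 to 2211) and the day 14 level a median of 36.4 (5.002 to 2477). Between the larger early level (days 0 and 5) and the smaller late level (days 10 and 14) the median ratio was 2.53, with quartiles of 2.18 and 3.26. It reached 3 in 36 members, 4 in 18 and 8 in 4. Only 3 members had both early levels under 1, so few of these genes were near 0 before day 10 and most were present from estrus on. The smaller late level was at least 100 in 22 members and under 10 in 28.

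The bounds cut through a continuous range of ratios. The 5 members just inside the fold bound had ratios of 2.001 to 2.01, and the 5 IDs just outside it had 1.99 to 1.997. Ratios from 1.8 to just under 2 were found for 54 IDs that met the level bounds. At the level bound, the 5 members just inside had a smaller late level of 5.002 to 5.42 and the 5 IDs just outside 4.64 to 4.97. In all, 30 IDs met the folds at a late level under 5, with those 5 included. The bound on day 0 excluded 0 IDs that met the folds.

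The members held a larger share of the counts on days 10 and 14 than on days 0 and 5, which follows from the choice. At estrus they held 0.368% ± 0.0699 of the counts together (SD, n = 4), and the share was 0.765% ± 0.513 by day 5 (SD, n = 4). It was 2.34% ± 0.918 in the day 10 libraries and 2.17% ± 0.370 in the day 14 libraries (SD, n = 4 per day). On day 5 the share was 1.52% in replicate 1 and 0.412% to 0.633% in the others, whose mean was 0.512% ± 0.112 (SD, n = 3). The day 10 share was 3.55% in replicate 1, and its mean was 1.94% ± 0.542 without that library and 2.31% ± 1.12 without replicate 3 (SD, n = 3 each). On day 18, which the choice did not read, it was 1.67% ± 0.949 (SD, n = 4). The day 18 libraries were far apart, at 0.446% in replicate 1 (95% Wilson interval 0.444 to 0.449), 1.55% in replicate 2 (1.548 to 1.558), 2.73% in replicate 3 (2.72 to 2.73) and 1.94% in replicate 4 (1.935 to 1.947). These intervals cover counting error only. The day 18 mean was 2.07% ± 0.598 without replicate 1 and 1.31% ± 0.776 without replicate 3 (SD, n = 3 each). In day 10 replicate 3 and day 18 replicate 3 the 3 most abundant members made up 49.3% and 52.4% of the members' counts, against 28.0% to 42.9% in the other 18 libraries.

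**Figure D1:**
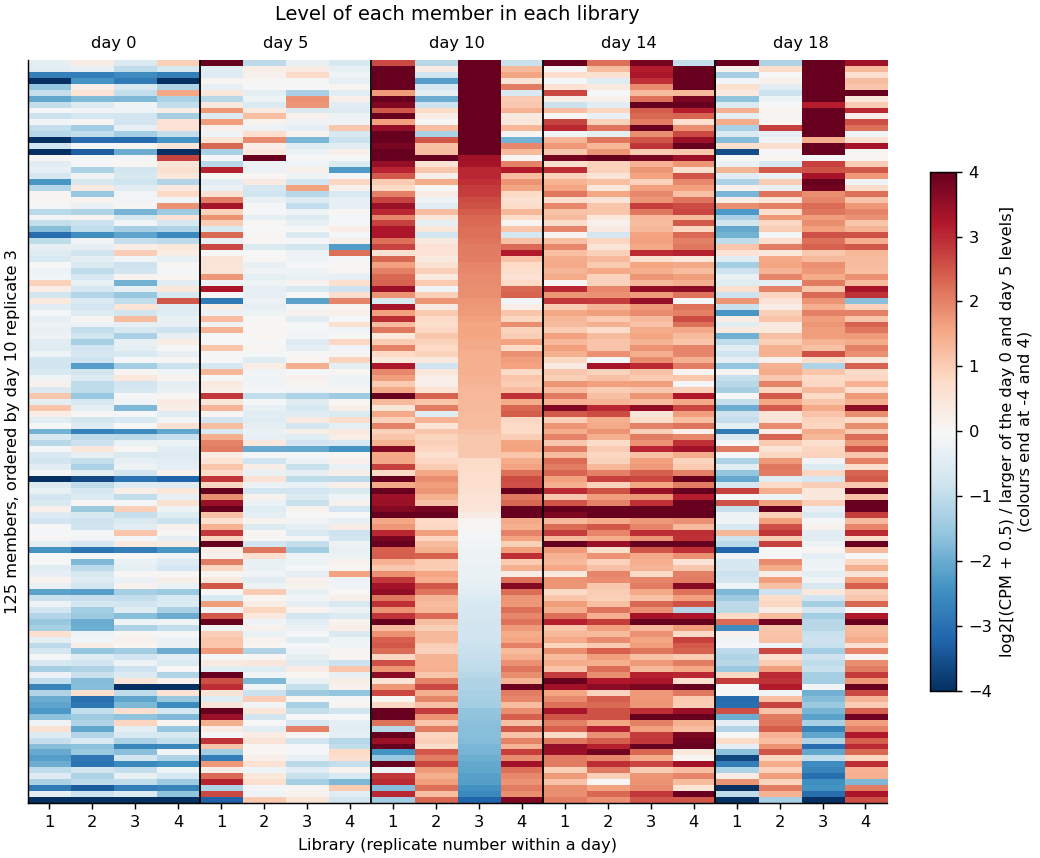
Each row is 1 of the 125 members and each column 1 of the 20 libraries, grouped by day; colour gives the log2 ratio of CPM plus 0.5 to the larger of the member's day 0 and day 5 levels, red above and blue below it. Day 10 replicate 3 and day 18 replicate 3 share a column pattern that splits the members, day 18 replicate 1 is mostly pale or blue, and day 5 replicate 1 is redder than the other day 5 libraries.

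Libraries were next compared by how many members they held at 2 times the larger early level or more. In the day 0 libraries 2, 0, 2 and 4 members (replicates 1 to 4) were that high. On day 5 it was 52 in replicate 1 and 6, 5 and 6 in replicates 2 to 4. On day 10 it was 105, 65, 67 and 94, and on day 14 it was 102, 87, 118 and 106. Day 14 thus had 103 ± 12.8 and day 10 had 82.8 ± 19.9 (SD, n = 4 each), and the values of days 0, 5, 10 and 14 follow from the choice. Day 10 had 75.3 ± 16.2 without replicate 1 and 88 ± 20.7 without replicate 3 (SD, n = 3 each). The day 18 libraries held 15 in replicate 1, 65 in replicate 2, 56 in replicate 3 and 97 in replicate 4, a mean of 58.3 ± 33.8 (SD, n = 4). It was 72.7 ± 21.5 without replicate 1 and 59 ± 41.3 without replicate 3 (SD, n = 3 each). Among the 11668 other IDs that met the level bounds, 1.23% to 4.30% were that high in a day 18 library.

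**Figure D2:**
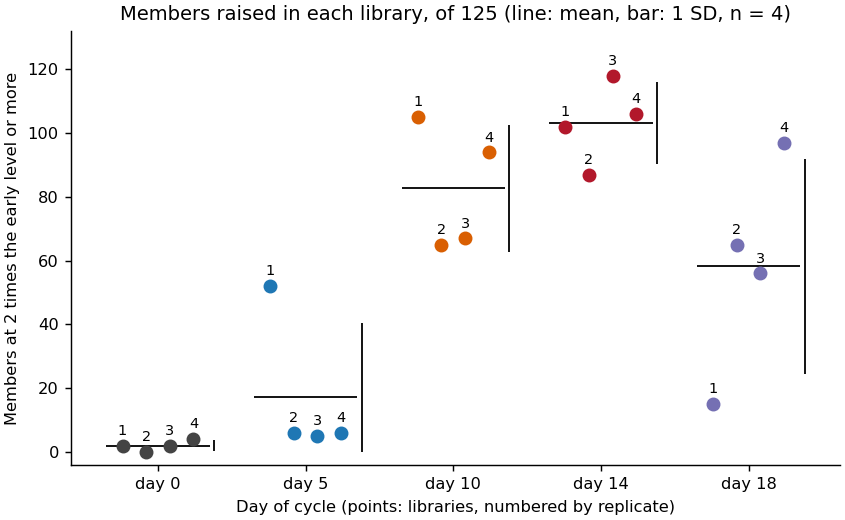
Points give, for each library, how many of the 125 members were at 2 times the larger early level or more, by day of cycle, with replicate numbers beside them; lines are means and bars 1 SD over 4 libraries, with the bar on day 5 ended at 0. Day 5 replicate 1 lies at 52 against 5 or 6 in its day, and day 18 runs from 15 to 97.

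A median of 4 libraries can pass with only 2 high ones, and day 10 often did. Of the 125 members, 53 were at 2 times the early level or more in 2 of the 4 day 10 libraries, 63 in 3 and 9 in all 4. On day 14 it was 26 members in 2 libraries, 35 in 3 and 64 in all 4. The day 10 libraries that carried the members were not the same ones. Replicates 1, 2 and 4 without 3 carried 35 members, replicates 1, 3 and 4 without 2 carried 24, replicates 1 and 3 alone carried 22, and replicates 2 and 4 alone carried 11. On both days together 7 members were that high in all 8 libraries and 34 in 7.

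The members were divided into those high in day 10 replicate 3 and the rest, by a cut at 2 times the early level. In that library 67 members were at 2 times the early level or more, 20 of them over 8 times, while 46 were at or under the larger early level. In day 18 replicate 3, 56 members were that high, and all 56 were among the 67, which is 83.6% of the day 10 replicate 3 list and 100% of the day 18 replicate 3 list. Of the 11668 other IDs that met the level bounds, 4.48% were that high in day 10 replicate 3 and 4.30% in day 18 replicate 3. Of the 58 members that stayed under this bound in day 10 replicate 3, 0 passed it in day 18 replicate 3. In day 10 replicates 2 and 4, 48 and 56 of the 58 passed it, in the day 14 libraries 49 to 56, and in day 18 replicates 2 and 4, 40 and 47. Their median log2 ratio to the early level was 1.43 and 1.92 in day 10 replicates 2 and 4 and −0.762 in replicate 3. The 67 were less uniform, with 17 high in day 10 replicate 2, 38 in replicate 4 and 37 to 62 in the day 14 libraries. The 20 members over 8 times the early level in day 10 replicate 3 included 20 high in day 10 replicate 1, 20 in day 14 replicate 3 and 19 in day 18 replicate 3, but 6 in day 10 replicate 2 and 7 in day 14 replicate 2. These sets were formed after the values were seen and are a description.

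**Figure D3:**
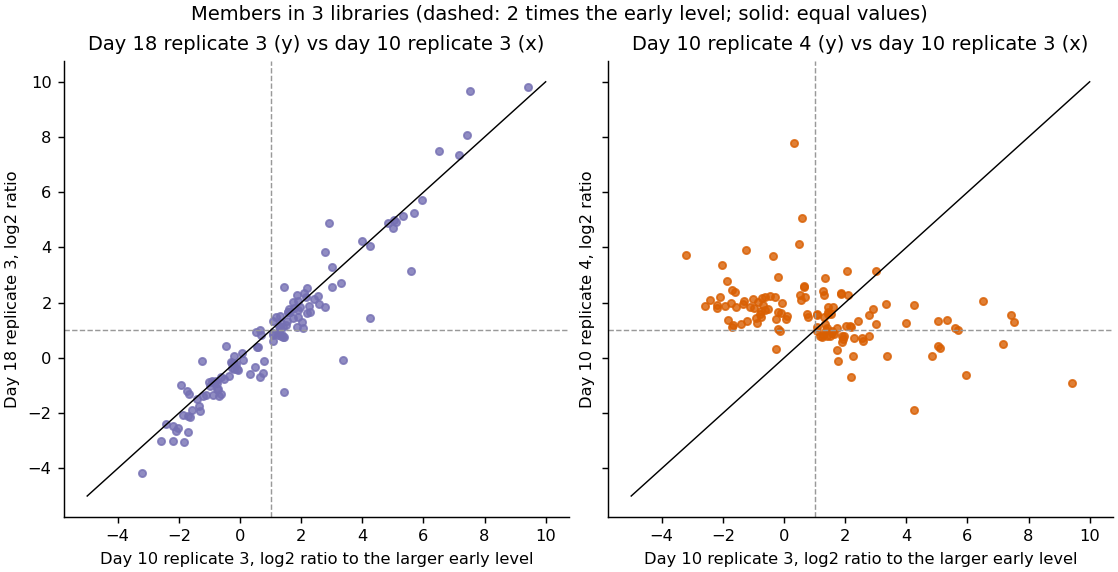
Each point is 1 member; the x axis is its log2 ratio to the larger early level in day 10 replicate 3 and the y axis the same ratio in day 18 replicate 3 (left) or day 10 replicate 4 (right), with dashed lines at 2 times the early level and a solid line of equal values. Members follow the line on the left, while on the right 56 of the 58 members left of the dashed line are above the horizontal one.

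How far the late level held in an animal that had no part in the choice was read by choosing again without 1 library and then reading that library. Without day 14 replicates 1, 2, 3 or 4, 140, 140, 104 and 112 IDs were chosen, and 66.4%, 57.9%, 90.4% and 75.9% of them were at 2 times the early level or more in the library left out. Day 10 held less evenly. Without day 10 replicates 1, 2, 3 or 4, 113, 133, 130 and 108 IDs were chosen, and 58.4%, 36.1%, 25.4% and 63.0% of them were that high in the library left out. In day 10 replicate 3 the median log2 ratio of the 130 IDs was −0.245, so the median ID lay below its early level there. Without day 5 replicate 1, 137 IDs were chosen, and 48.9% were already at 2 times the early level in that animal. For the other day 5 libraries it was 6.03% to 14.4%, and for the day 0 libraries 3.25% to 7.46%. Most IDs were thus at 2 times the early level or more in the day 14 library left out. That early level came from day 0 and day 5 libraries that the choice read as low. This tilts the shares upward, so they are a description. Among the 11668 other IDs that met the level bounds of the full choice but not its folds, 2.71% to 3.77% were that high in a day 14 library. The late level of the chosen IDs held less often. In day 14 replicates 1 to 4, 75, 84, 22 and 37 of the IDs lay below their smaller late level when left out. In day 10 replicates 1 to 4 it was 53, 113, 107 and 56. Day 10 replicates 2 and 3 held a smaller share at 2 times the early level than replicates 1 and 4. Day 5 replicate 1 held a larger share than the other day 5 libraries. This reading was added after the data had been examined and carries no test.

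Single genes were tested between days with the quasi-likelihood test of edgeR, and a gene was called where its p, adjusted by Benjamini-Hochberg over 16947 IDs, was under 0.05. All 125 members were among the IDs tested. Percentages in brackets give the share of all tested IDs called in that direction. In the 4 contrasts that the choice used, the counts are a description only. From estrus to day 14, 73 members rose (7.28%) and 0 fell (8.43%), and to day 10, 76 rose (8.62%) and 0 fell (7.18%). The median log2 fold changes of the members were 2.20 and 2.32. DESeq2 called 96 members (11.2%) and 106 members (13.2%) in these contrasts, and limma voom 111 (24.8%) and 79 (13.7%), all higher on the late day. From day 5 to day 14, 3 members rose (0.578%) and 0 fell (0.602%), with a member median of 1.46. DESeq2 called 28 members there (3.79%) and limma voom 99 (17.2%). From day 5 to day 10, 0 members rose (0%) and 0 fell (0.0059%) by edgeR, with a member median of 1.37. Of the members 70 had an unadjusted p under 0.05 in that contrast and were higher on day 10 (8.35% of all tested IDs), and 29 were called by DESeq2 (1.16%) and 43 by limma voom (3.73%). The choice set the same fold for days 0 and 5. For the same late day, calls against day 0 still outnumbered those against day 5 by edgeR, DESeq2 and limma voom. The shares over all tested IDs differed in the same direction, so this is not particular to the members. By limma voom it was 111 against 99 for day 14 and 79 against 43 for day 10. The difference between these numbers was not tested. Members were more variable within days than other genes, with a median biological coefficient of variation of 0.708 against 0.328 over all tested IDs. This spread was estimated from libraries that the choice read too, so it is not free of the choice and is a description.

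These counts changed when single libraries were dropped, which also leaves 3 animals in place of 4 on that day. A library of a day outside a contrast acts on it only through the low-count filter, the scaling and the spread shared over days. Dropping replicates 1 to 4 of day 0 in turn took the 76 calls between days 0 and 10 to 38, 29, 42 and 44, and dropping replicate 1 of day 10 took them to 41. The same 4 libraries of day 0 took the 73 calls between days 0 and 14 to 41, 28, 37 and 43, and dropping replicates 1 to 3 of day 14 gave 46, 46 and 42. Between days 5 and 14 the 3 calls grew to 25 when day 5 replicate 1 was dropped and to 29 for day 18 replicate 1, and to 5 for day 10 replicate 3 or day 18 replicate 4. They shrank to 1 for day 10 replicate 2 or 4, and to 0 for any of the day 0 or day 14 libraries and for day 5 replicates 2, 3 and 4. Between days 5 and 10 the 0 calls grew to 4 when day 5 replicate 1 was dropped, to 2 for day 10 replicate 3, to 7 for day 18 replicate 1 and to 1 for day 18 replicate 3.

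Groups of libraries that do not overlap were counted as well. In 20 of the 125 members all 8 libraries of days 10 and 14 lay above all 8 of days 0 and 5, where 1.1% of all tested IDs did so; the choice used these libraries, so nothing is read from the difference. Dropping day 10 replicate 3 gave 37 members (1.98%), dropping day 5 replicate 1 gave 39 (2.02%), and dropping both gave 77 (3.79%). With day 10 replicates 1 and 3 and day 18 replicate 3 dropped it was 41 (4.65%). For day 14 against day 0 alone, 112 members did not overlap (25.8% of all tested IDs did so), and for day 14 against days 0 and 5, 54 (8.04%).

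The choice set the same bounds on days 0 and 5 and on days 10 and 14, so it did not set the direction within either pair. From day 0 to day 5, 6 members rose (4.43%) and 0 fell (4.14%), so the members' 4.8% that rose is near the background. The day 5 level was above the day 0 level in 98 members, or 78.4%, against 66.0% of the 11668 other IDs that met the level bounds. It was at least 2 times it in 30, and at most 0.5 times it in 3. The share of other IDs was not counted for these folds, so nothing is read from them. DESeq2 called 20 members, all higher on day 5 (8.28%), and limma voom called 12 higher (17.1%) and 1 lower (17.2%). The 6 edgeR calls shrank to 0 when any of the day 0 libraries or day 5 replicate 2 was dropped, to 2 for day 5 replicate 4 and to 3 for day 14 replicates 1, 2 and 3, and grew to 12 for day 18 replicate 1. From day 10 to day 14, 0 members rose (0%) and 0 fell (0%) by edgeR, and DESeq2 (0.0296% higher and 0.0592% lower) and limma voom (0% and 0.13%) also called 0. Of the members, 2 had an unadjusted edgeR p under 0.05, both lower on day 14 (5.81% of all tested IDs were lower and 2.44% higher by that rule), so the members' 1.6% is under the background. The median log2 fold change of the members was −0.0607 (−0.0200 over all tested IDs). It was 0.476 without day 10 replicates 1 and 3 and day 18 replicate 3, and it was also above 0 without day 10 replicate 1 alone (0.184), with total counts alone (0.0240), with a replicate block (0.121) and by limma voom (0.261). No direction between these days is therefore given. The day 14 level was above the day 10 level in 73 members, or 58.4%, against 64.3% of the 11668 other IDs. It was at least 2 times it in 19, and the day 10 level was at least 2 times the day 14 level in 13. For these folds, too, the share of other IDs was not counted.

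On day 18 most members lay above their larger early level and below their day 14 level, with large differences between animals. The median log2 ratio of the members to the larger early level was −0.621, 1.05, 0.839 and 1.70 in day 18 replicates 1 to 4. The day 18 level was at least 2 times the larger early level in 61 members, between 1 and 2 times it in 54, and at or under it in 10. It was below the day 14 level in 111 members and under 0.5 times it in 54, while 10 members were higher on day 18 than on both late days. It was below the day 10 level in 93 members, or 74.4%. Among the 11668 other IDs that met the level bounds, the day 18 level was at least 2 times the larger early level in 0.557%. In those IDs it was below the day 14 level in 67.2%, under 0.5 times the day 14 level in 3.88%, and below the day 10 level in 54.2%. Members were chosen for high day 14 levels and low day 0 levels, and both tilt these comparisons, so they are a description. From day 14 to day 18, 0 members rose (0%) and 0 fell (0%) by edgeR. Of the members, 14 had an unadjusted edgeR p under 0.05 and were lower on day 18 (3.1% of all tested IDs), and 1 was higher (6.95%). DESeq2 called 2, both lower on day 18 (0.0415%, with 0.195% higher), limma voom called 0 (0% either way), and edgeR called 1 once day 10 replicate 3 was dropped. The median log2 fold change of the members was −0.522, against 0.0224 over all tested IDs. Dropping day 18 replicate 1 gave −0.259, and dropping replicate 4 gave −0.826. In 9 members all day 14 libraries lay above all day 18 libraries (2.82% of all tested IDs did so).

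**Figure D4:**
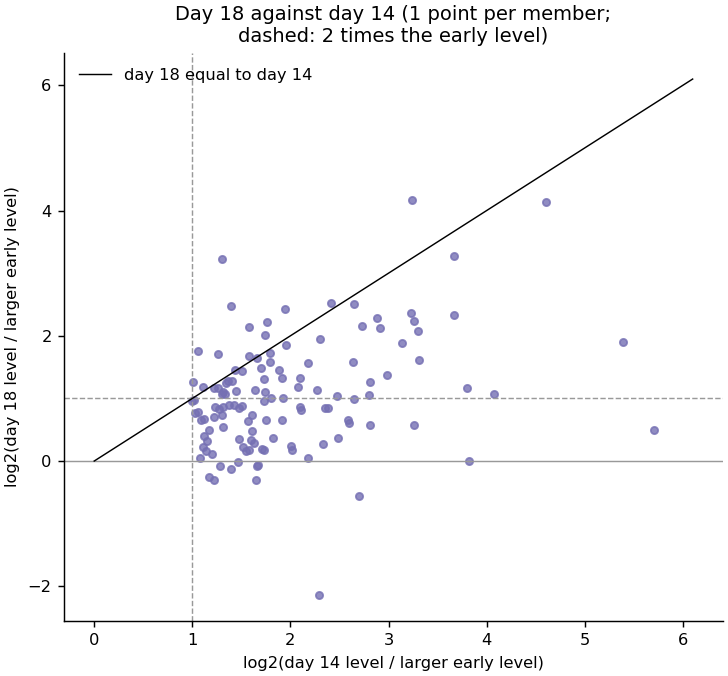
Each point is 1 of the 125 members, with the log2 ratio of its day 14 level to its larger early level on the x axis and of its day 18 level on the y axis; the solid diagonal marks equal levels and dashed lines 2 times the early level. Most points, 111 of 125, lie under the diagonal, and 61 are on or above the dashed horizontal line.

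Closing the cycle, 14 members fell from day 18 to day 0 (1.07%) and 0 rose (1.75%), with a median log2 fold change of −1.70 against −0.0597 over all tested IDs. Day 0 was read by the choice as a low day, so this count is not free of it. DESeq2 called 66 members (5.46%) and limma voom 50 (5.15%), all lower on day 0. Day 18 replicate 1 moved the edgeR count most, to 63 once it was dropped. Dropping day 10 replicate 1 gave 22, dropping replicates 1 to 4 of day 0 gave 4, 3, 5 and 4, and dropping replicates 2 to 4 of day 18 gave 8, 8 and 7. Blocking on the replicate number gave 8. In 22 members all day 18 libraries lay above all day 0 libraries (4.41% of all tested IDs did so), and in 65 without day 18 replicate 1 (14.1%).

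The largest ratio of the smaller late to the larger early level, 52.1, was that of ENSBTAG00000021118. On day 0 it had 4, 3, 0 and 5 counts in replicates 1 to 4, or 0.168, 0.132, 0 and 0.188 CPM, and on day 5 it had 1.65, 0.243, 0.472 and 0.438 CPM. On day 10 it had 574, 95.7, 0.700 and 208 CPM, and on day 14 it had 12.1, 78.6, 20.02 and 117 CPM. It was thus close to 0 in all 8 early libraries and in day 10 replicate 3, which lay below day 5 replicate 1, while the other 7 late libraries lay above every early one. On day 18 it was back at 0.330, 1.37, 0.135 and 5.96 CPM, and no day 18 library reached a day 14 one. Its counts on day 14 were 30.6 times those on day 18 per total count (95% exact interval 26.3 to 35.8, counting error only). From day 14 to day 18 the edgeR log2 fold change was −4.85 (SE 1.35, adjusted p = 0.453). The adjusted p was 0.0191 with DESeq2, and over all alternatives tried it ranged from 0.0191 to 0.958. From day 5 to day 14 it was among the 3 members called, at 6.34 on the log2 scale (SE 1.47) and an edgeR adjusted p of 0.0466, in a contrast that the choice used.

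The member with the highest smaller late level was ENSBTAG00000032902. It had 473, 287, 556 and 418 CPM in the day 0 libraries and 3283, 918, 364 and 443 CPM in those of day 5. On day 10 it had 4904, 1867, 150 and 2555 CPM, and on day 14 it had 2231, 1326, 2299 and 2633 CPM. Day 10 replicate 3 was below every day 0 library, and day 5 replicate 1 was above every day 14 library. On day 18 it had 838, 2161, 83.2 and 1822 CPM, so replicates 2 and 4 lay within the day 14 range and replicate 3 was the lowest of all 20 libraries. From day 14 to day 18 the log2 fold change was −0.739 (SE 0.851, edgeR adjusted p = 0.752). Dropping day 18 replicate 3 gave −0.351, and dropping replicate 2 gave −1.10. No other of its contrasts passed 0.05, among them day 0 to day 14 at 2.08 (SE 0.880, edgeR adjusted p = 0.111).

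Apart from these, the largest ratios of the day 14 level to the day 18 level belonged to ENSBTAG00000002252 and ENSBTAG00000014234. ENSBTAG00000002252 had 5 counts over the 4 day 0 libraries and 0.623, 21.6, 14.3 and 5.83 CPM on day 5. It had 3.58, 51.9, 0.653 and 140 CPM on day 10 and 43.4, 37.4, 60.1 and 58.9 CPM on day 14. Day 14 was the most even of its days, and day 10 replicates 1 and 3 lay below 3 of the 4 day 5 libraries. On day 18 it had 0.0824, 3.72, 0.0897 and 63.1 CPM, so 3 animals were far under the day 14 range and replicate 4 was above it. The log2 fold change from day 14 to day 18 was −1.55 (SE 1.44, edgeR adjusted p = 0.689). It was −5.25 without day 18 replicate 4 and −4.24 when blocked on replicate number, and neither passed 0.05. From day 0 to day 5 it was among the 6 members that rose, at 7.38 on the log2 scale (SE 2.19) and an edgeR adjusted p of 0.0456.

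ENSBTAG00000014234 was the most irregular of the 4. On day 0 it had 0.0420, 0, 0 and 2.89 CPM, and on day 5 it had 35.3 CPM in replicate 2 and no counts in the other 3 libraries. On day 10 it had 36.4, 16.2, 4.90 and 0.0465 CPM. All 4 day 14 libraries were close together at 6.94, 8.34, 6.76 and 5.07 CPM, and on day 18 only 2 counts were found over the 4 libraries. The ratio of day 14 to day 18 per total count was 306 (95% exact interval 84.3 to 2530, counting error only). At so few reads the prior count shapes the fitted value, which was −7.81 on the log2 scale (SE 2.76) with an edgeR adjusted p of 0.453. All 4 day 14 libraries lay above all 4 day 18 libraries, and the adjusted p was 0.135 to 0.958 over the alternatives. An ID present in single animals of days 0 and 5 passed the choice because a median of 4 does not read 1 high library.

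**Figure D5:**
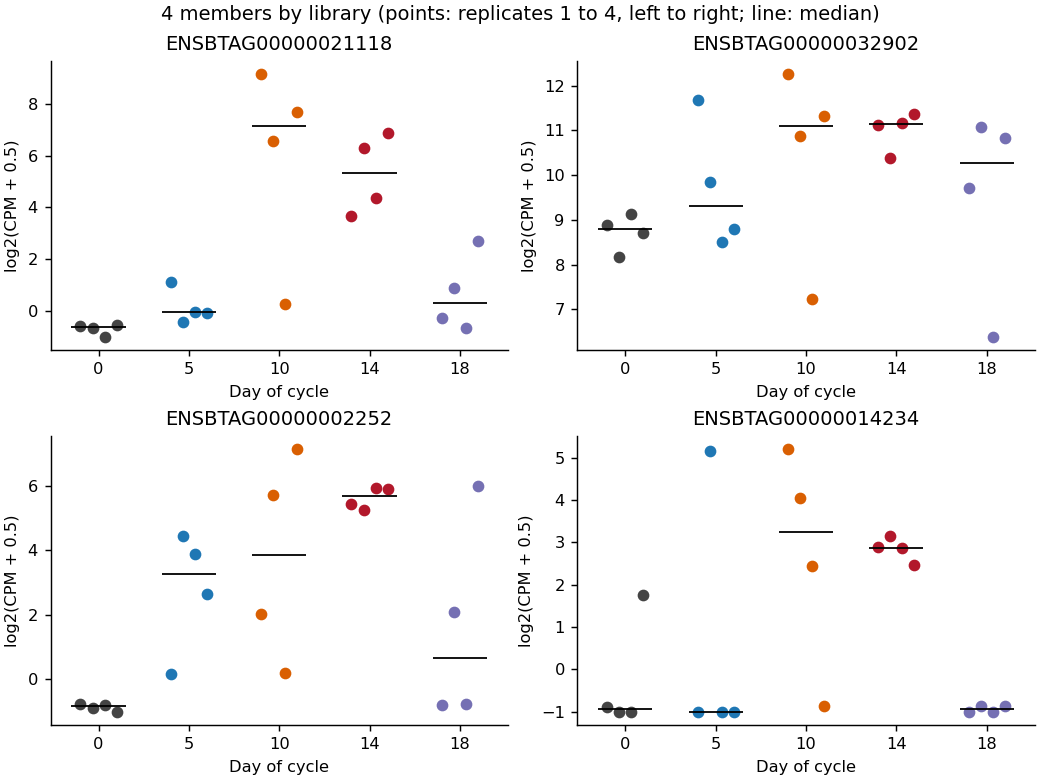
Each panel shows log2 of CPM plus 0.5 for 1 member against the day of cycle, with replicates 1 to 4 of a day as points from left to right and their median as a line. The third point of day 10 lies near or below the early days in the first 3 panels, and the points of day 18 are spread over the panel in ENSBTAG00000032902 and ENSBTAG00000002252.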

How the data were processed

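Messenger RNA of 20 endometrial biopsies was measured, 4 animals on each of 5 days. Poly(A) RNA went into a TruSeq stranded preparation, per the labels' protocols. FastQC, STAR and edgeR are listed in the submitters' processing notes, with neither version nor role. The strand setting of the counting, its program, the build and the annotation are not stated in the labels or headers, so reads of antisense or near-identical genes may not be told apart. The authors deposited raw counts per Ensembl gene ID, 1 table per library, with no column of another sample (0) and no row without an ID.

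Members were found on CPM from column totals. Tests used edgeR 4.0.16 in R 4.3.3 on the deposited counts: filterByExpr (16947 IDs kept), TMM factors, all 20 libraries, 1 mean per day, robust quasi-likelihood F-test, two-sided, Benjamini-Hochberg over all tested IDs. The SE of a log2 fold change is its size over the square root of F. Alternatives were other scalings, no low-count filter, limma 3.58.1 (voom, weighted by library quality), DESeq2 1.42.0, a replicate block, other bounds of the choice, and each library left out. Intervals came from scipy 1.17.1 and figures from matplotlib 3.10.9. Simulated counts with known changes on day 14 were also run through the edgeR step. Their outcome is not given here, so they lend no support to the calls. The members and lists were chosen with earlier results of these data known. Printed IDs follow a fixed rule for tables without names: the member with the largest late-to-early ratio, the one with the highest smaller late level, and the other 2 with the largest ratio of the day 14 to the day 18 level. The fixed gene lists and cell type markers need names and were not run. P-values set a difference between day means against the spread between animals of the same day, which was estimated over all 5 days together.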

Additional observations from a re-analysis of the deposited data

Results flagged for a closer look

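In 5 of the 35 groups of 4 libraries examined, 1 library lay far from the other 3 by Dixon's gap test, which flags about 1 in 20 groups by chance. That rate does not hold for days 0 and 5, since the choice read their medians as low and a median of 4 admits 1 high library. On day 5, 52 members were at 2 times the early level or more in replicate 1, against 5 to 6 in the others. ENSBTAG00000021118 stood out on day 5, with 1.65 CPM in replicate 1. ENSBTAG00000014234 stood out on day 0, with 2.89 CPM in replicate 4, and on day 5, with 35.3 CPM in replicate 2. ENSBTAG00000002252 stood out on day 18, with 63.1 CPM in replicate 4.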

How the results depend on the processing

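The number of members was 414 with a fold of 1.5 and 36 with a fold of 3, against 125. Under the other bounds and scalings tried it was 97 to 131, but with the mean in place of the median only 81 of the 125 were chosen again. Leaving out 1 library gave 104 to 142 IDs, of which 86 to 125 were members, and leaving out day 10 replicates 1 and 3 and day 18 replicate 3 together, an alternative chosen after seeing the data, gave 136 with 83 members. In that alternative 41 members did not overlap between early and late days (20 to 39 with 1 library left out). The members changed were then 20 from day 0 to day 5, 2 from day 5 to day 10, 23 from day 5 to day 14 and 42 from day 0 to day 10, and the median log2 fold change from day 10 to day 14 was 0.476. DESeq2 called 20 members from day 0 to day 5, 29 from day 5 to day 10, 2 from day 14 to day 18, 66 from day 18 to day 0 and 28 from day 5 to day 14. Limma voom called 13, 43, 0, 50 and 99 in these contrasts, and 111 from day 0 to day 14. From day 5 to day 14 it was 1 with total counts alone and 0 without the low-count filter. The cause of these differences was not tested. With each library left out, the counts ran from 0 to 12 (day 0 to day 5), 0 to 7 (day 5 to day 10), 0 to 1 (day 14 to day 18), 3 to 63 (day 18 to day 0), 0 to 29 (day 5 to day 14), 29 to 86 (day 0 to day 10) and 28 to 84 (day 0 to day 14). From day 10 to day 14 it was 0 throughout. The median log2 fold change from day 14 to day 18 ran from −0.826 to −0.259 and that from day 10 to day 14 from −0.203 to 0.184.

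With a block for the replicate number 8 members changed from day 18 to day 0, in place of 14; in the other contrasts the count stayed within 1.5 times. The labels do not say that a number is shared between days. Deviations of same-numbered libraries of different days correlated at a median of 0.0456 (−0.374 to 0.766), over 0.1 in 12 of 40 pairs. Pairs of different numbers had a median of −0.0218 (−0.589 to 0.364), over 0.1 in 29 of 120. Of the 20 libraries, 10 correlated best with one of their own number. Since the labels name no pairs, the numbers were not taken as pairs in the main tests. What a shared number stands for was not tested. At 21234000 counts or more per library, a late level of 5 is on the order of 100 counts, but levels of days 0, 5 and 18 can rest on a few, as in ENSBTAG00000014234 with 2 counts on day 18.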
